A study of Mus musculus with 7 samples.

Results

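The dystrophin-glycoprotein complex was followed here through 8 genes, *Dmd*, *Utrn*, *Dag1*, *Sgca*, *Sgcb*, *Sgcd*, *Sgce* and *Sspn*, chosen by name from the 56748 genes of the count tables. All 8 were found once. Their RNA was compared between muscle stem cells (MuSCs) of WT and homozygous *Jag2sm* mice in 7 libraries, 3 from WT and 4 from *Jag2sm*. *Jag2* encodes a NOTCH ligand, and *Jag2sm* is a naturally occurring missense allele of it that lowers its function rather than deleting the gene, although the labels write the genotype as Jag2-/-. MuSCs came from hind limb muscles of adult mice. They were enriched with magnetic beads by removing CD31+, CD45+ and Sca1+ cells and keeping Integrin α7+ cells, and were then kept in growth medium. No other treatment was labelled in either group. Whether a library came from 1 animal or several is not stated, so p-values measure the spread between these libraries.

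Dystrophin, the product of *Dmd*, joins the actin cytoskeleton under the muscle fiber membrane to dystroglycan, which crosses that membrane and binds laminin outside through its sugar chains. The sarcoglycans and sarcospan form a subcomplex beside dystroglycan. Utrophin is the autosomal relative of dystrophin, which it can replace in the complex, and it is abundant at the neuromuscular junction and in regenerating fibers. Loss of dystrophin causes Duchenne muscular dystrophy, and loss of α-, β- or δ-sarcoglycan causes limb-girdle muscular dystrophies.

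*Dmd* RNA fell 16.4-fold, and *Dag1* and *Sgcb* fell 3.48-fold and 2.2-fold. The level of *Utrn* was 1.54-fold lower on average, a difference that did not pass the test. *Sgca*, *Sgce* and *Sspn* did not pass it either, and *Sgcd* was too sparse to be tested. Of the 7 members tested, 3 were lower, 0 were higher and 4 did not pass. Over all 9489 genes tested, 4.84% were called lower, 1.42% higher and 6.26% in either direction. A gene was called at an adjusted p under 0.05 in edgeR. The unadjusted edgeR p was 0.0470 for *Utrn* and 0.0545 for *Sgca*. With library size alone as scaling, the split over all genes moved from 459 lower and 135 higher to 384 lower and 241 higher, and the same 3 members were called. The median log2 fold change of the 7 tested members was -0.63, against 0.05 over all genes tested.

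The libraries held between 187834 and 1937581 reads on genes. WT replicate 1 was the smallest and stood apart. Of its aligned reads 45.1% were counted on no gene, where the other 6 libraries had 20.8% to 25.7%. Reads that did not align made up 45.9% to 50.8% of *Jag2sm* replicates 1, 2 and 4 and 2.44% to 3.24% of the other 4 libraries. Normalized counts are given as CPM, the reads of a gene scaled to the TMM-corrected total of its library. A count of 0 would allow up to 16.0 CPM in WT replicate 1 and up to 1.55 CPM in *Jag2sm* replicate 3, for counting error only. *Jag2* itself is no check of the genotype, since the allele changes an amino acid. It was read at 80.7, 114 and 116 CPM in WT and at 42.4, 78.8, 71.9 and 77.4 CPM in *Jag2sm* (log2 fold change -0.64, SE 0.24, edgeR adjusted p = 0.166).

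RefSeq promoter entries of the genes that fell are shown beside one of *Utrn*, since dystrophin and utrophin RNA are compared throughout. Each is 300 bases, 250 before and 50 after a transcription start listed by RefSeq, on build GRCm38.p6, written on the gene's own strand. Capitals mark CANNTG, the E-box motif that MyoD-family and many other basic helix-loop-helix factors bind. It reads the same on both strands, and overlapping matches were all kept. RefSeq lists a promoter for 7 of the 8 members.
*Dmd* upstream start, chrX:82948620-82948919, + strand: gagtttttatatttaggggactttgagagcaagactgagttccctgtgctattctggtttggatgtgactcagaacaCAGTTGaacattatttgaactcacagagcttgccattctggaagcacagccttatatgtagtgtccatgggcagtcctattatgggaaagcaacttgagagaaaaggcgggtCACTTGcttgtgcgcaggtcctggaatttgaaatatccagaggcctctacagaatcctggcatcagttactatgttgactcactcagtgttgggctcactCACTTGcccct
*Dmd* downstream start, chrX:85048045-85048344, + strand: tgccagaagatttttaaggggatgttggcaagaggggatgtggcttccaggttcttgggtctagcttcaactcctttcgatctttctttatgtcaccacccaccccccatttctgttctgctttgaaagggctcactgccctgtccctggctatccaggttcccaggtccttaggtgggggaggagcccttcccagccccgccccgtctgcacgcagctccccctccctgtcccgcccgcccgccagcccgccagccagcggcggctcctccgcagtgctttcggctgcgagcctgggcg
*Utrn*, chr10:12861686-12861985, - strand: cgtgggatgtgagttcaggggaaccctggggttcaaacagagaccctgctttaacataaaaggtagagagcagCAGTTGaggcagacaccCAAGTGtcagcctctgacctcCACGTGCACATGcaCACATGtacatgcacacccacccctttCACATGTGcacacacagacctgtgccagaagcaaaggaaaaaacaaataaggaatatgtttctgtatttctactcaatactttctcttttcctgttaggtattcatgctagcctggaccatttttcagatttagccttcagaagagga
*Dag1*, chr9:108263909-108264208, - strand: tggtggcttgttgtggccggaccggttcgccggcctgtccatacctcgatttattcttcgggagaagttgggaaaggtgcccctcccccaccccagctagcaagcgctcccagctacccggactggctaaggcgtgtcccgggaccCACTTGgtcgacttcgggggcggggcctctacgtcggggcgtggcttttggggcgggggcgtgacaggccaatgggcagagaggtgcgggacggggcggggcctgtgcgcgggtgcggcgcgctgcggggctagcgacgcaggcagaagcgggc
*Sgcb*, chr5:73647688-73647987, - strand: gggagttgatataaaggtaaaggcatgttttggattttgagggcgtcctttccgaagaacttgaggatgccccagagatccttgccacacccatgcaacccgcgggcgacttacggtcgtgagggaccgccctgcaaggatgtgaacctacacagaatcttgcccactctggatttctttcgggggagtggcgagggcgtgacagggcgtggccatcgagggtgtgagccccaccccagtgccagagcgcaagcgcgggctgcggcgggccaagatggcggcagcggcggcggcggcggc

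CANNTG occurred 3 times at the upstream *Dmd* start, 0 times at the downstream start, 7 times at *Utrn*, 1 time at *Dag1* and 0 times at *Sgcb*. For *Dag1* RefSeq also lists chr9:108263766-108264065, which overlaps the stretch shown, holds CANNTG 1 time and is not shown. Of all 32851 promoters of this length in the table, 72.3% held at least 1. The narrower form CAGCTG was in 16.3% of promoters and in none of the 5 shown. The listed *Utrn* start, chr10:12737479 in GRCm39, lies inside the gene, whose upstream end is at 12745265. Its first 50 bases are found in 8 of 20 GENCODE transcripts of *Utrn*. The *Dag1* start, chr9:108141157, also lies inside its gene, whose upstream end is at 108152333. Whether these starts are used in MuSCs was not tested, so the motif counts describe the listed stretches only. The 2 *Dmd* starts lie 2099.4 kb apart. The first 50 bases at the upstream one are found in 3 GENCODE transcripts of *Dmd*, the longest a protein-coding one of 14945 bases. Those at the downstream one are found in 1 transcript of 1792 bases, annotated as a retained intron and not as protein coding. Only transcripts holding all 50 bases were counted, so protein-coding transcripts that begin just after that start would be missed. Gene counts pool every transcript of a gene, so reads of long and short *Dmd* transcripts cannot be told apart.

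**Figure D1:**
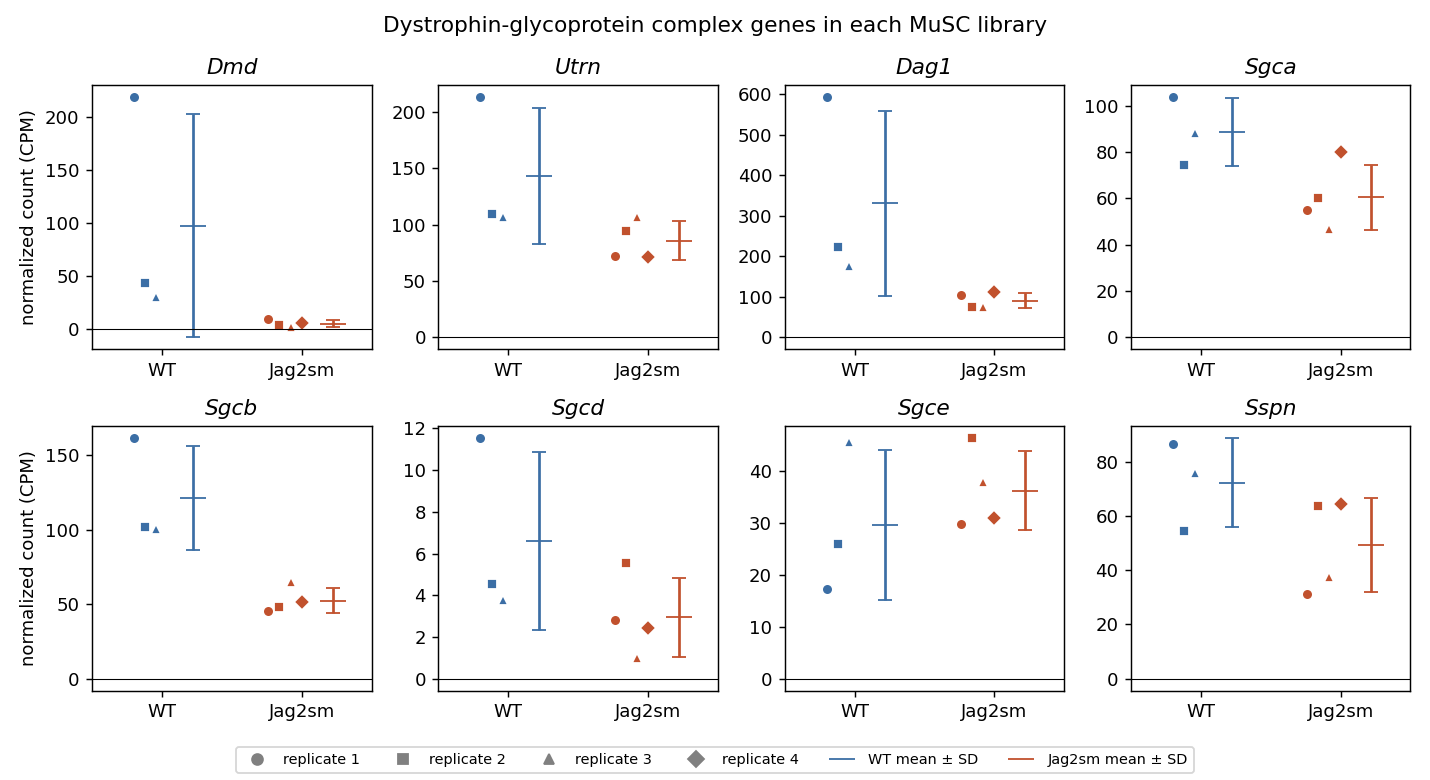
Normalized count in CPM of the 8 members in each MuSC library, with blue points for the 3 WT libraries, red points for the 4 Jag2sm libraries, a marker shape for each replicate number and the group mean ± SD beside them; each panel has its own vertical scale. Dmd lies at or below 9.90 CPM in Jag2sm and at or above 30.4 CPM in WT. WT replicate 1 carries the largest value of every member but Sgce.

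*Dmd* (chrX:81992474-84249747, + strand, GRCm39) had the largest change of the members. Its 3 WT libraries gave 219, 43.3 and 30.4 CPM from 38, 67 and 32 reads. The 4 *Jag2sm* libraries gave 9.90, 3.46, 1.97 and 5.71 CPM from 7, 5, 4 and 7 reads. Every *Jag2sm* library was therefore below every WT library, and WT replicate 1 was well above the other 2. The mean was 97.6 ± 105 CPM in WT (SD, n = 3) and 5.26 ± 3.45 CPM in *Jag2sm* (SD, n = 4). The log2 fold change was -4.03 (SE 0.75, edgeR adjusted p = 0.0116). Without WT replicate 1 the fold fell from 16.4 to 8.19, and the call held (log2 fold change -3.03, SE 0.45, edgeR adjusted p = 0.00808). The difference in mean log2 CPM was -3.42, with an exact two-sided permutation p of 0.0286, the smallest that 35 arrangements of 7 libraries can give. In libraries of the same batch number the log2 CPM differed by -4.25, -3.12 and -3.12.

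*Utrn* (chr10:12257537-12745265, - strand) had a smaller difference, which shrank without WT replicate 1. WT libraries gave 213, 109 and 107 CPM and *Jag2sm* libraries 72.1, 94.0, 106 and 70.9 CPM. The groups did not overlap, but WT replicate 3 and *Jag2sm* replicate 3 were less than 1 CPM apart. Over all genes tested, 12.2% had every *Jag2sm* library below every WT library and 10.3% had every one above. The log2 fold change was -0.63 (SE 0.28, 95% interval -1.24 to -0.01, edgeR adjusted p = 0.244), and the exact permutation p on log2 CPM was 0.0571. It came to -0.33 without WT replicate 1 (SE 0.21, edgeR adjusted p = 0.422). Within batches the log2 CPM differed by -1.54, -0.21 and -0.01. With TMM scaling no *Jag2sm* library was above any WT library, so a higher *Utrn* level beside the lower *Dmd* level was not seen. That separation depended on the scaling. With library size alone, *Jag2sm* replicate 3 (216 of 1905704 reads) was above WT replicates 2 (169 of 1631805) and 3 (113 of 1141520). The log2 fold change was then -0.47 (edgeR adjusted p = 0.346).

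The 2 genes were then set against each other inside each library, where depth and scaling cancel. For every *Utrn* read, WT libraries held 1.03, 0.398 and 0.286 *Dmd* reads and *Jag2sm* libraries 0.146, 0.0403, 0.0208 and 0.0857, with 0.5 added to each count. All 4 *Jag2sm* ratios were below all 3 WT ratios. The mean log2 ratio was -1.03 ± 0.96 in WT (SD, n = 3) and -4.14 ± 1.23 in *Jag2sm* (SD, n = 4). The difference of -3.10 had an exact two-sided permutation p of 0.0571, which does not pass 0.05 in a design whose smallest p is 0.0286. Within batches it was -2.82, -3.31 and -3.78.

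*Dag1* (chr9:108081833-108152333, - strand), which encodes both dystroglycan subunits, also fell. It was read at 594, 224 and 176 CPM in WT and at 105, 73.9, 74.4 and 111 CPM in *Jag2sm*, with no overlap. The log2 fold change was -1.80 (SE 0.39, edgeR adjusted p = 0.0213), and the exact permutation p on log2 CPM was 0.0286. Without WT replicate 1 the fold was 2.25 in place of 3.48, and the edgeR adjusted p was 0.0182. Without *Jag2sm* replicate 2 the fold was 3.28 and the call was lost, at an edgeR adjusted p of 0.0818. The log2 CPM differed by -2.49, -1.58 and -1.23 within the 3 batches.

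The log2 ratio of *Dag1* to *Utrn* reads was 1.46, 1.04 and 0.72 in WT and 0.53, -0.34, -0.52 and 0.64 in *Jag2sm*. Its groups did not overlap, and the *Jag2sm* mean was 0.08 against 1.07 in WT. This pair was picked after its values were seen and was not tested. Summed over *Dmd* and the 4 sarcoglycan members and divided by the sum of *Utrn* and *Dag1*, reads gave ratios of 0.636, 0.748 and 0.947 in WT and 0.808, 0.975, 0.842 and 0.937 in *Jag2sm*. Those groups overlapped, and the *Jag2sm* mean log2 ratio was higher by 0.21. Members that passed the test stood on both sides of that ratio, *Dmd* and *Sgcb* above it and *Dag1* below.

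**Figure D2:**
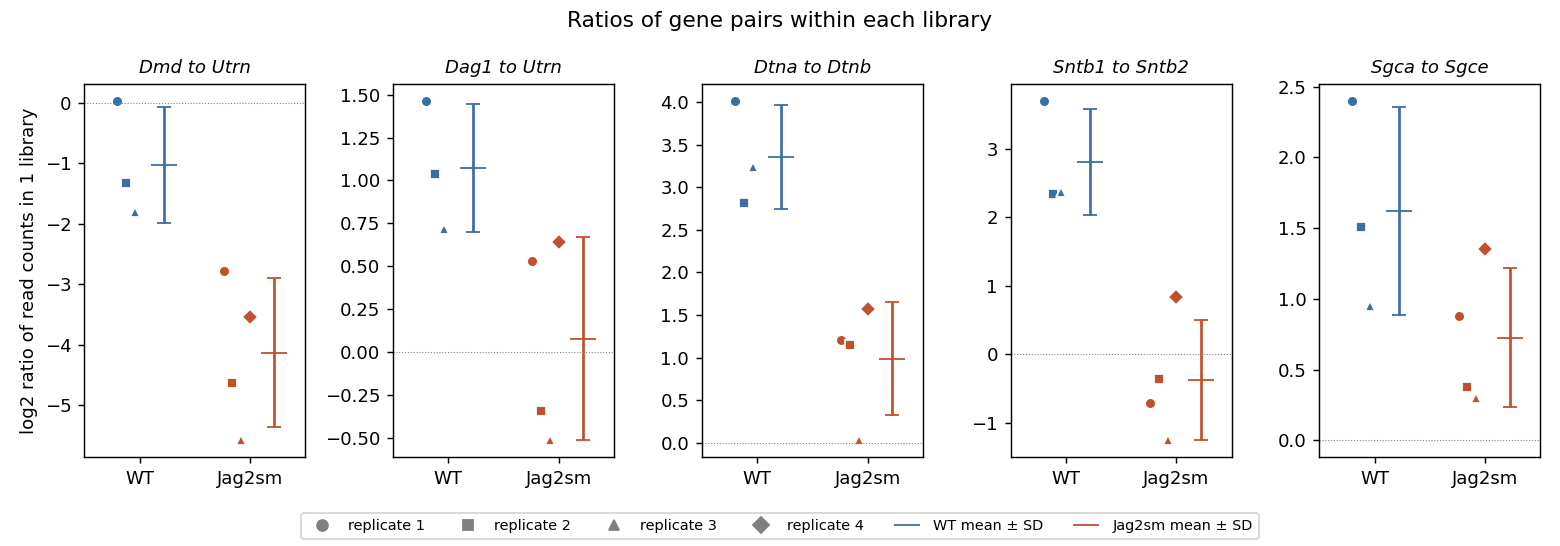
Log2 ratio of the read counts of 5 gene pairs within each library, blue for WT and red for Jag2sm, with the mean ± SD beside the points and a vertical scale for each panel; the dotted line marks equal counts. The Dmd to Utrn ratio averages -1.03 in WT and -4.14 in Jag2sm, and the groups are apart in all pairs but Sgca to Sgce.

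Among the sarcoglycans, *Sgcb* (chr5:73790086-73805133, - strand), whose product β-sarcoglycan is a core subunit of the subcomplex, fell. It gave 161, 102 and 101 CPM in WT and 45.3, 48.4, 64.5 and 51.4 CPM in *Jag2sm*. Its WT and *Jag2sm* ranges were apart, with means of 121 ± 34.9 CPM (SD, n = 3) and 52.4 ± 8.49 CPM (SD, n = 4). The log2 fold change was -1.12 (SE 0.23, edgeR adjusted p = 0.0178), with an exact permutation p of 0.0286. The call was lost with the batch number as a block (log2 fold change -1.11, edgeR adjusted p = 0.0675) and without *Jag2sm* replicate 2 (edgeR adjusted p = 0.0722).

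*Sgca* (chr11:94853605-94867273, - strand) encodes α-sarcoglycan, which is made in striated muscle. WT libraries gave 104, 74.3 and 88.2 CPM and *Jag2sm* libraries 55.2, 60.1, 46.8 and 79.9 CPM. *Jag2sm* replicate 4 reached into the WT range. Their log2 fold change was -0.51 (SE 0.23, 95% interval -1.02 to 0.01, edgeR adjusted p = 0.265), and within batches the log2 CPM differed by -0.89, -0.30 and -0.89. *Sgce* (chr6:4672057-4747207, - strand) encodes the broadly expressed ε-sarcoglycan, a relative of α-sarcoglycan. It gave 17.3, 25.9 and 45.5 CPM in WT and 29.7, 46.3, 37.9 and 31.0 CPM in *Jag2sm*, overlapping groups. Its log2 fold change of 0.18 had a 95% interval from -0.51 to 0.86 (edgeR adjusted p = 0.813). The log2 ratio of *Sgca* to *Sgce* reads averaged 1.62 ± 0.73 in WT (SD, n = 3) and 0.73 ± 0.49 in *Jag2sm* (SD, n = 4), and the groups overlapped.

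*Sgcd* (chr11:46787080-47879796, - strand), for δ-sarcoglycan, was read 2, 7 and 4 times in WT and 2, 8, 2 and 3 times in *Jag2sm*, too few for the filter. Its pooled log2 ratio of CPM was -0.76, with an exact 95% interval for counting error of -1.93 to 0.43. A change of the size seen for *Sgcb* lay inside that interval. *Sspn* (chr6:145877367-145910950, + strand), for the membrane protein sarcospan, gave 86.5, 54.3 and 75.9 CPM in WT and 31.1, 63.6, 37.5 and 64.4 CPM in *Jag2sm*. Groups overlapped, with a log2 fold change of -0.47 (SE 0.30, 95% interval -1.14 to 0.19, edgeR adjusted p = 0.426). Exons of *Dmd*, *Utrn* and *Sspn* each overlap 1 long noncoding gene on the opposite strand. The strand setting of the counting is not given in the sources used here, so those reads may include the antisense RNA.

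**Figure D3:**
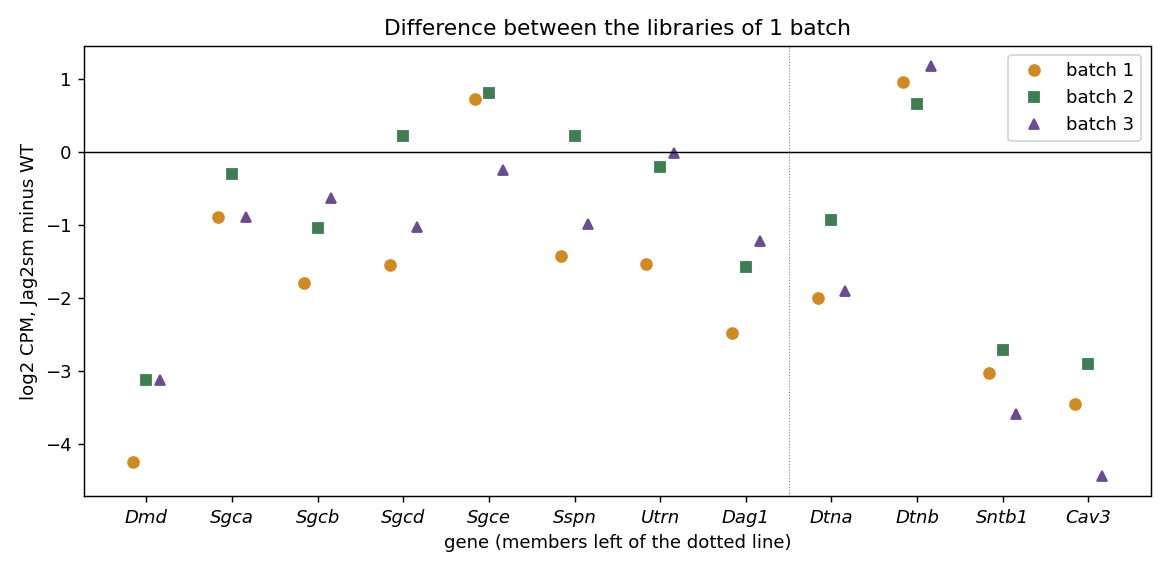
Difference in log2 CPM between the Jag2sm and the WT library of each of 3 batch numbers, for the members (left of the dotted line) and 4 genes of their partners. Dmd, Dag1, Sgcb, Sgca and Utrn lie below 0 in all 3 batches, Utrn at -0.01 in batch 3, and Dtnb lies above 0 in all 3.

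Other genes of the complex were taken from lists by role. *Drp2*, another relative of dystrophin known from Schwann cells, had a log2 fold change of 0.41 (SE 0.26, 95% interval -0.16 to 0.98, edgeR adjusted p = 0.420). *Sgcz*, for ζ-sarcoglycan, had 1 read in all.

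The 9 cytoplasmic partners included 6 tested genes, of which 3 fell, 0 rose and 3 did not pass. *Cav3*, the muscle caveolin of the fiber membrane, gave 559, 291 and 377 CPM in WT and 49.5, 37.3, 15.8 and 65.2 CPM in *Jag2sm*. Its lowest WT value was over 4 times its highest *Jag2sm* value. On the log2 scale it changed by -3.29 (SE 0.42, edgeR adjusted p = 0.00285). *Sntb1*, for the adaptor β1-syntrophin, gave 184, 182 and 149 CPM in WT and 21.2, 26.3, 10.8 and 74.2 CPM in *Jag2sm*. *Jag2sm* replicate 4 was the highest of its group and still below WT. Its log2 fold change was -2.37 (SE 0.49, edgeR adjusted p = 0.0185), with an exact permutation p of 0.0571 on log2 CPM. The fold of 5.18 became 9.26 with the batch block, and the log2 fold change became -3.16 without *Jag2sm* replicate 4. The call was lost in 4 of 17 alternatives, with edgeR adjusted p up to 0.079. *Dtna*, for α-dystrobrevin, gave 231, 102 and 102 CPM in WT and 56.6, 52.5, 26.1 and 63.6 CPM in *Jag2sm* (log2 fold change -1.44, SE 0.36, edgeR adjusted p = 0.0419). That call was lost under 9 of 17 alternatives, with edgeR adjusted p up to 0.106.

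Their paralogs, picked after the values were seen, had other values. *Dtnb*, for β-dystrobrevin, which is best known outside muscle, was at 11.5, 14.2 and 10.4 CPM in WT and at 24.0, 23.5, 25.6 and 21.2 CPM in *Jag2sm*. All 4 *Jag2sm* libraries were above WT, at a log2 fold change of 0.93 (SE 0.28, 95% interval 0.31 to 1.54) that did not pass (edgeR adjusted p = 0.0793). With library size alone as scaling it passed, at an edgeR adjusted p of 0.0474. *Sntb2*, for β2-syntrophin, overlapped between groups at a log2 fold change of 0.22 (edgeR adjusted p = 0.890). *Dtna* reads per *Dtnb* read were 16.2, 7.04 and 9.43 in WT and 2.31, 2.22, 1.02 and 2.96 in *Jag2sm*. *Sntb1* reads per *Sntb2* read were 13.0, 5.07 and 5.16 in WT and 0.608, 0.778, 0.421 and 1.78 in *Jag2sm*. Both ratios were without overlap, and neither was tested. *Nos1*, whose product docks on syntrophin, had 5 reads in WT and 6 in *Jag2sm*, *Sntg1* had 1 in each and *Sntg2* had none.

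Genes for the sugars and ligands of dystroglycan had no calls in edgeR. Of 18 glycosylation genes, 11 were tested, and their median log2 fold change was -0.05 (range -0.50 to 0.42). *Rxylt1*, which adds a xylose to the matriglycan linker, had a log2 fold change of 0.25 (edgeR adjusted p = 0.582). *Dpm3*, a subunit that anchors dolichol-phosphate mannose synthase, had 0.42 (edgeR adjusted p = 0.503). Of 10 matrix ligand genes, 8 were tested. *Hspg2*, for perlecan, had a log2 fold change of -0.93 (SE 0.41, 95% interval -1.83 to -0.02, edgeR adjusted p = 0.239), which came to -0.15 without WT replicate 1. Within batches its log2 CPM differed by -2.13, -0.11 and 0.23. *Lamb1*, for laminin β1, gave 74.9, 162 and 118 CPM in WT and 320, 212, 333 and 205 CPM in *Jag2sm*. Its groups did not overlap, at a log2 fold change of 1.11 (SE 0.30, edgeR adjusted p = 0.0527), and it passed in 8 of 17 alternatives. The laminin receptor Integrin α7β1, which works beside the complex, had log2 fold changes of -0.63 for both *Itga7* (edgeR adjusted p = 0.428) and *Itgb1* (edgeR adjusted p = 0.105). *Itga7* served to select the cells. At an unadjusted p under 0.05, edgeR gave 0 of the 11 glycosylation genes, 2 of the 8 ligand genes (*Lamb1* and *Hspg2*) and *Itgb1*. Over all genes, 1873 of the 9489 tested were under that threshold. DESeq2 called *Lamb1* and *Itgb1*.

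**Figure D4:**
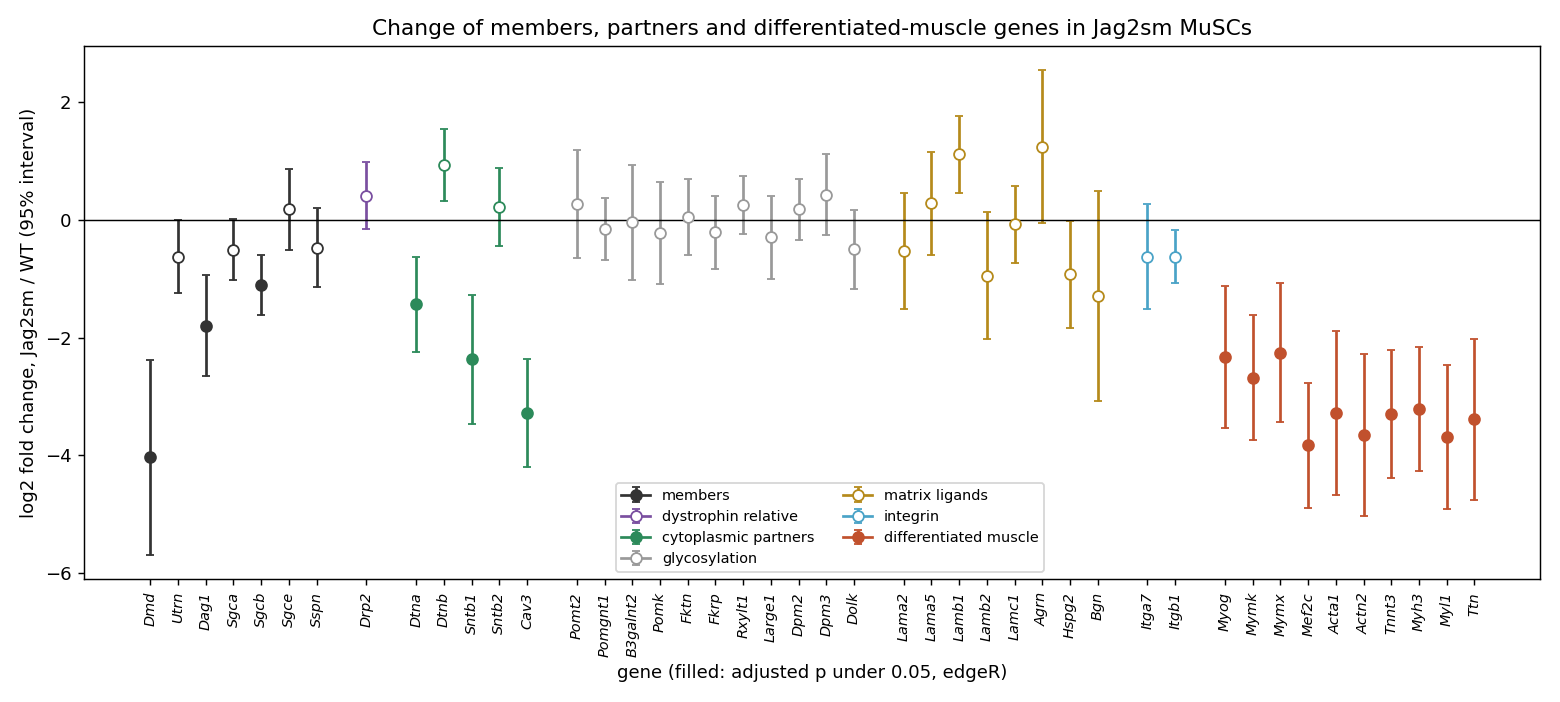
Log2 fold change of Jag2sm over WT with its 95% interval for the tested members, genes of 5 related lists and the tested differentiated-muscle genes; filled points passed at an adjusted p under 0.05 in edgeR. Cav3 at -3.29 lies within the range of the differentiated-muscle genes, -3.83 to -2.26, Dmd at -4.03 has an interval of -5.69 to -2.38 that spans most of it (-3.03 without WT replicate 1), and no glycosylation gene is filled.

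Genes of differentiated muscle were also lower in *Jag2sm*. Of 12 such genes, 10 were tested and all 10 fell, without overlap, at a median log2 fold change of -3.29 and a range of -3.83 to -2.26. *Mymx* lost its call with the batch block (edgeR adjusted p = 0.0675) and in 5 of 17 alternatives in all, and *Myog* in 6 of 17 (edgeR adjusted p up to 0.158 and 0.106). The 10 genes included the myogenic factor *Myog*, the fusion genes *Mymk* and *Mymx*, the transcription factor *Mef2c* and the sarcomere genes *Acta1*, *Actn2*, *Tnnt3*, *Myh3*, *Myl1* and *Ttn*. The study had reported muscle development genes, *Myog*, *Mymk* and *Mef2c* among them, as downregulated in these same libraries. The fall of the 10 genes here is therefore not independent evidence. *Myog* gave 2894, 2222 and 2851 CPM in WT and 711, 387, 110 and 906 CPM in *Jag2sm*. The summed level of the 12 genes was 19380 to 39290 CPM in WT and 706 to 4605 CPM in *Jag2sm*. In *Jag2sm* it was lowest in replicate 3, where *Dmd*, *Cav3*, *Dtna* and *Sntb1* were also lowest. *Sgcb* and *Utrn* were instead highest there among the 4 *Jag2sm* libraries, and *Dag1* was lowest in replicate 2. WT replicate 1 had the highest sum and the highest *Dmd*, *Dag1* and *Cav3*. It was also highest for every other member but *Sgce*, which was lowest there, and for *Hspg2* (1257 CPM) and *Itga7* (156 CPM). *Mymx* was lowest there among the WT libraries, at 104 CPM against 222 and 380 CPM. The part of differentiating cells in the values of the complex was not tested, and in bulk RNA fewer cells of a type and less RNA per cell cannot be told apart.

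All 7 markers of MuSCs and myoblasts had reads in every library. In WT replicate 1, *Myf5* and *Vcam1* had only 1 read each and *Pax7* had 5. *Pax7* was read at 28.8, 95.7 and 80.6 CPM in WT and at 100, 129, 172 and 125 CPM in *Jag2sm* (log2 fold change 0.80, edgeR adjusted p = 0.173). *Myf5* and *Vcam1* also had positive log2 fold changes (0.60 and 1.03). Those of *Myod1*, *Cdh15* and *Itga7* were negative (-0.19, -0.61 and -0.63), and none of these genes was called. Of the 7 genes of that list 1 fell, *Des*, for the muscle intermediate filament desmin (log2 fold change -1.63, edgeR adjusted p = 0.0245), a call lost with the batch block (edgeR adjusted p = 0.0597) and without *Jag2sm* replicates 1 or 2 (edgeR adjusted p = 0.0601 and 0.0890). The 5 endothelial markers summed to 2.59 to 11.5 CPM in WT and 2.45 to 14.1 CPM in *Jag2sm*, with *Kdr* at 0 in all libraries. The 5 immune markers summed to at most 1.94 and 4.08 CPM, with *Ptprc*, *Lyz2*, *Adgre1* and *Cd3e* at 0. The 5 fibro-adipogenic markers summed to 0 to 16.1 CPM in WT and 6.41 to 44.9 CPM in *Jag2sm*, with *Lum* at 0. The 3 glial markers summed to at most 1.29 and 4.24 CPM. The 5 mural markers summed to 1026 to 1921 CPM and 848 to 2284 CPM, mostly *Acta2*. The pericyte marker *Rgs5* stood at 11.5 to 14.2 CPM in WT, at 645 CPM in *Jag2sm* replicate 1 and at 25.3 to 40.4 CPM in the other 3, so every *Jag2sm* library was above WT. Its log2 fold change was 3.73 (SE 1.32, edgeR adjusted p = 0.135), and 1.27 without *Jag2sm* replicate 1, when it passed (edgeR adjusted p = 0.0491). The rest of the mural list did not share that rise. *Acta2* had a log2 fold change of -0.26 (edgeR adjusted p = 0.781). *Cspg4*, not tested, gave 28.8, 14.2 and 4.74 CPM in WT and 1.41, 2.07, 5.42 and 4.89 CPM in *Jag2sm*. *Pdgfrb* had 6 reads in WT and 7 in *Jag2sm*, and *Kcnj8* had 0 and 2. Of the 3 tenocyte markers *Scx* was tested and fell (log2 fold change -1.34, edgeR adjusted p = 0.0223, lost in 5 of 17 alternatives), with summed levels of 115 to 121 CPM and 29.6 to 75.8 CPM. The part of other cell types in the members' values was not tested.

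Among the 5 genes whose profiles over the 7 libraries lay nearest to that of *Dmd* were *Mb*, *Neurl1a* and *Art1*. Likeness was the mean absolute difference in log2 CPM after each gene was centred on its own mean, and it was 0.170 for *Mb*, the muscle oxygen carrier myoglobin, to 0.262 for *Art1*, a muscle ADP-ribosyltransferase. For *Utrn* they were *Ivd*, *Usp12*, *Cep85l*, *Nfix* and *R3hdm1*, at 0.083 to 0.101. *Mb* was read at 127, 16.8 and 14.2 CPM in WT and at 4.24, 1.38, 0.493 and 1.63 CPM in *Jag2sm*, so WT replicate 1 was again far above the other 2. Its *Jag2sm* values rest on 3 reads or fewer per library, and those of *Dmd* on 4 to 7. The prior count of 2 therefore weighs on this likeness. *Ivd*, an enzyme of leucine breakdown, gave 104, 53 and 54.1 CPM in WT and 36.8, 49.8, 58.6 and 42.4 CPM in *Jag2sm*. Its groups overlapped.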

How the data were processed

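RNA of MuSCs was measured in 7 libraries by Oxford Nanopore direct cDNA sequencing. Per the study's methods, reads were called with dorado, aligned to GRCm39 with minimap2 2.17 and counted on genes with htseq. Each file deposited by the authors holds raw counts of reads per gene. The release of the annotation, the htseq version and its strand setting are not given in the sources used here. A table of the authors' DESeq2 comparison, with mean level, log2 fold change, standard error, statistic and p-values per gene, was not used. The 5 htseq summary lines were left out of the tests. Symbols came from GENCODE M39, in which 56017 of the 56748 identifiers were found, and locations from its GRCm39 annotation.

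Counts were fitted in R 4.3.3 with edgeR 4.0.16 (filterByExpr with minimum count 10 and minimum total 15, TMM, glmQLFit and glmQLFTest without covariates). Adjusted p is by Benjamini-Hochberg over 9489 genes. SE is the log2 fold change divided by the square root of F. Log2 CPM used a prior count of 2. Exact tests permuted the genotype over 35 arrangements of the 7 libraries. Alternatives used DESeq2 1.42.0, limma 3.58.1, other scalings and filters, thinning to the smallest library, and each library left out. Intervals of pooled ratios are exact binomial at 95% (SciPy 1.17.1), and intervals and the limit of 3 counts cover counting error only. The fits were tested on simulated data.

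The labels give each library a batch number equal to its replicate number, so replicates 1, 2 and 3 of both genotypes are paired by the label, and the batch was a block in 1 alternative. Deviations from group means correlated across genes at 0.0740, 0.0144 and 0.0539 in the 3 pairs. Between libraries of different batch numbers they correlated at -0.0944 to 0.0644. The members, the lists and the pairs of genes were chosen with earlier results of these data known. Named genes were all members, every called gene of a related list or else its 2 genes of highest mean CPM, and the 5 genes most like *Dmd* and *Utrn*. Exceptions are named in the text, and some genes of the lists are counted but not reported by name here.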

Additional observations from a re-analysis of the deposited data

Results flagged for a closer look

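Among the members and the tested genes of related lists, 37 were examined in the 4 *Jag2sm* libraries for a value far from the other 3, and chance flags about 1 in 20. In replicate 1, *Dpm2*, a subunit of dolichol-phosphate mannose synthase, was high at 59.4 CPM, and *Dolk*, which makes dolichol phosphate, was high at 33.9 CPM. *Lamc1*, for laminin γ1, was low there at 25.4 CPM. No member of the complex was flagged.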

How the results depend on the processing

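Of the members, 3 were called as reported, and 1 to 3 when a library was left out. The count was lowest without *Jag2sm* replicate 2, when *Dmd* alone passed. It was 2 with the batch as a replicate block (*Dmd* and *Dag1*). It was also 2 with at least 10 counts in every library and after thinning, where *Dmd* was not tested and *Dag1* and *Sgcb* passed. The other settings called *Dmd*, *Dag1* and *Sgcb*. Of the other genes of the complex, 4 were called as reported, 8 with no filter on low counts, and 1 to 4 with a library left out. *Cav3* passed under all 17 alternatives, and alone without *Jag2sm* replicate 2. Leaving out WT replicate 1 and *Jag2sm* replicate 1 together, an alternative chosen after seeing the data, kept all 3 calls among members and 2 of the others, *Cav3* among them. The log2 fold change of *Itga7* ran from -0.98 to 0.031 with libraries left out and changed sign in that alternative, the 1 change of sign among the named genes. Library size alone as scaling moved the median log2 fold change of all genes from 0.05 to 0.21. Over all genes, 594 were called as reported, 1248 with no filter, 274 with at least 10 counts in every library, 266 after thinning and 251 without *Jag2sm* replicate 2. They were 343 and 341 without WT replicates 2 and 3. With the replicate block 565 were called, and the block changed the call of *Sgcb* and of no other member, and those of *Mymx* and *Des* among the markers named. The *Dmd* to *Utrn* log2 ratio differed by -3.10 as reported, -3.004 with a pseudocount of 1, -3.30 as the mean of the paired within-batch differences, and between -3.56 and -2.57 with a library left out. The causes were not tested. Depth limits *Sgcd*, and *Dmd* in *Jag2sm*, where a library held 4 to 7 reads.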
